A study of Mus musculus with 8 samples.

Results

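The chemokine genes Cxcl1, Cxcl2, Cxcl5, Cxcl9, Cxcl10, Cxcl12, Cxcl16, Cx3cl1, Ccl2 and Ccl20, which biliary epithelium can express, were compared between label-retaining and non-label-retaining biliary cells of mouse liver. These 10 genes were chosen by name out of the 46603 gene rows of the count table, each matched to its Ensembl identifier, and 7 of them passed the expression filter and were tested among 13605 genes. RNA had been sequenced from 8 libraries of 4 mice, JV602, JV621, JV624 and JV6314, with an EGFP-positive library (liver label-retaining cells, LLRCs) and an EGFP-negative library (non-LRC cells) from each mouse, and the comparison asked which transcripts set the label-retaining cells apart. All mice were heterozygous for R26rtTA, a doxycycline-dependent transactivator in the ubiquitously active Rosa26 locus, and heterozygous for H2B-EGFP, a histone fusion that is diluted at each division. All had received doxycycline from birth to postnatal day 5 and were 8 weeks old when the liver cells were taken, so that both groups shared the genotype, the treatment and the age and were sorted apart by the green label left in the cells. The colony was of mixed C57BL/6 and CBA background and both sexes were used. Both fractions had been sorted as EpCAM+CD45- cells, and the study describes blood cells of these mice that carry EGFP without doxycycline.

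Chemokines are small secreted or membrane-tethered proteins that guide leukocytes along a gradient through G protein-coupled receptors. Cholangiocytes, the epithelial cells that line the bile ducts, make several of them after microbial products, injury or cytokines, and in this way draw neutrophils, monocytes and T cells to the portal tract. NF-kB is the main activator of the neutrophil attractants, and interferon signalling is the main activator of Cxcl9 and Cxcl10.

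LLRC libraries held 7860021 to 9851819 counts and non-LRC libraries 4670132 to 8056103, and levels are given in CPM, library-size-scaled counts with TMM factors. Values of single libraries are listed throughout in the order of the mice named above, JV602 first and JV6314 last. In these libraries 3 counts were worth 0.291 to 0.627 CPM. The non-LRC libraries of JV621 and JV6314 stood apart from the rest, with 0 counts for 15.6% and 7.75% of the genes tested against 0.345% to 1.57% in the other 6 libraries. For the chemokine genes tested other than Cxcl10, log2 fold changes are therefore given with and without these libraries, and for other genes only with them. The fits without them kept their LLRC partners. No log2 fold change is given for Cxcl10, which had 0 counts in all non-LRC libraries. Pancreatic acinar markers were also high in the non-LRC library of JV6314, with all 10 read and a summed level of 1457 CPM. In the other libraries that sum was 2.25 to 23.05 CPM. The cholangiocyte markers were read in both fractions, all 16 in 7 libraries and 15 in the non-LRC library of JV621, with a summed level of 115300 to 222400 CPM in LLRCs and 66900 to 164700 CPM in non-LRC cells that was nearly all Spp1. The water channel gene Aqp1 was lower in LLRCs with no overlap (5.89 ± 2.01 against 99.5 ± 54.3 CPM, adjusted p = 0.0809 in edgeR's quasi-likelihood test), as 260 genes tested (1.91%) were, and Ggt1 was higher with no overlap (7.78 ± 2.07 against 2.03 ± 2.18 CPM, adjusted p = 0.9999 in the same edgeR test), as 292 (2.15%) were. The chloride channel gene Cftr stood at 148.7 ± 55.5 against 55.0 ± 30.0 CPM (adjusted p = 0.688 in the same edgeR test). Aqp1 and Cftr had an unadjusted p below 0.05, and the other 14 cholangiocyte markers did not. In this comparison 0 genes (0.0%) had an adjusted p below 0.05 in edgeR's quasi-likelihood test, and 702 genes (5.16%) had an unadjusted p below 0.05, 217 of them (1.6%) higher and 485 (3.56%) lower in LLRCs. No chemokine gene therefore passed the adjusted threshold in that test. Of the 7 tested, Cxcl10 had an unadjusted p below 0.05 with a higher level in LLRCs and Cxcl12 with a lower one. Their median log2 fold change (LLRC over non-LRC) was 0.22, also with Cxcl10 set at its lower bound, and -0.17 without Cxcl10, against -0.01 over all genes tested. Cxcl10 passed the filter through the LLRC libraries alone. DESeq2's Wald test called 221 genes (1.62%), edgeR's likelihood ratio test 171 (1.26%) and its exact test 159 (1.17%), and Cxcl10 and Cxcl12 were among the genes that each of these tests called.

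All 10 genes were read in at least 1 library. Their summed level was 160.0 to 189.4 CPM in the 4 LLRC libraries and 213.7 to 350.3 CPM in the 4 non-LRC libraries, and these ranges did not overlap. Cxcl12 made up 57.0% and 51.1% of the sum in the non-LRC libraries of JV624 and JV6314, and Cxcl16 with Cx3cl1 79.2% in that of JV621. None of the 10 genes was by itself lower in LLRCs without overlap, as 260 genes tested (1.91%) were. Cxcl16 and Cxcl12 together made up most of each sum, and the other 8 genes summed to 55.3 to 70.2 CPM in LLRCs and, by mouse, to 74.9, 8.14, 96.0 and 2.37 CPM in non-LRC cells. The number of the 10 genes with any count was 7 to 9 in LLRC libraries. It was 6, 4, 9 and 4 in the non-LRC libraries, so the low numbers lay in the 2 libraries that had many genes at 0.

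Per kilobase of exon, the scale on which genes can be compared with each other, Cxcl16 stood highest in LLRCs at 29.6 ± 5.81 CPM per kb (SD, n = 4), followed by Cxcl1 at 22.7 ± 9.20 and Cxcl5 at 6.10 ± 4.33. Ccl2 at 3.72 ± 5.43, Cxcl12 at 2.24 ± 0.382 and Cxcl10 at 1.01 ± 0.374 CPM per kb came next, and Cx3cl1, Cxcl9, Ccl20 and Cxcl2 were below 0.5 CPM per kb. Neighbours in this order differed by less than the sum of their standard deviations, with the exception of Cxcl1 against Cxcl5 and of Cxcl12 against Cxcl10. In non-LRC cells Cxcl16 was again first at 43.7 ± 22.3 CPM per kb, and Cxcl12 came second at 12.7 ± 10.2 CPM per kb, next to Cxcl1 at 12 ± 13.9 and Ccl2 at 9.80 ± 9.54. Cxcl10 had the lowest level there, at 0. With the exception of Cxcl10, the genes below Cxcl16 in non-LRC cells had standard deviations close to or above their means, and their order is not resolved by 4 libraries.

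**Figure D1:**
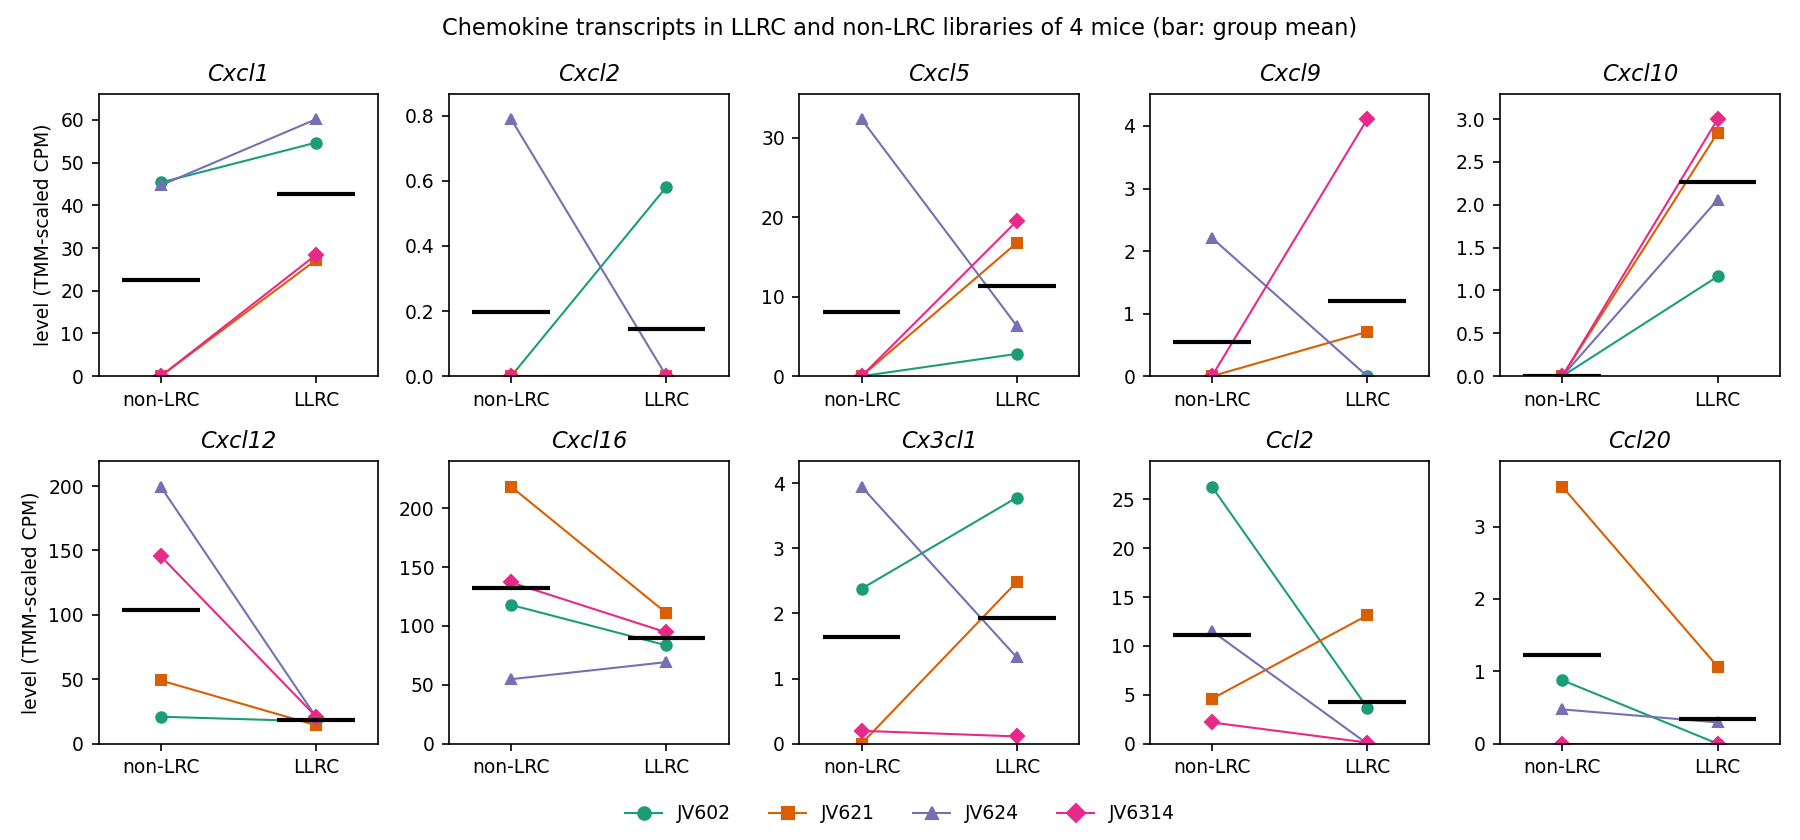
Level of each of the 10 chemokine genes in TMM-scaled CPM in every library, with a point for each library, lines joining the non-LRC and LLRC libraries of a mouse and black bars at group means. Cxcl10 has a level above 0 in the 4 LLRC libraries and 0 in the 4 non-LRC libraries, Cxcl12 is highest in the non-LRC libraries of JV624 and JV6314, and Cxcl1 is at 0 in the non-LRC libraries of JV621 and JV6314.

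The bases before the start of 4 of these genes are shown because they hold, or lack, the letters that NF-kB and interferon-responsive factors are known to bind. RefSeq promoter windows on GRCm38.p6 matched 7 of the 10 genes by symbol, and Cxcl5, Cxcl16 and Ccl2 had no entry. The motif GGGNNNTTCC was searched as NF-kB-like and GAAANNGAAA as ISRE-like (interferon-stimulated response element), on both strands of the 250 bases before the start. At least 1 NF-kB-like match was present in 4.65% of the 32851 windows of the table and at least 1 ISRE-like match in 2.98%. The 220 bases before the RefSeq start of Cxcl1 (chr5:90891025-90891244, plus strand), Cxcl2 (chr5:90903679-90903898, plus strand), Cxcl10 (chr5:92348890-92349109, minus strand) and Cxcl12 (chr6:117168315-117168534, plus strand) are printed 5′ to 3′ with all matches in capitals.
Cxcl1: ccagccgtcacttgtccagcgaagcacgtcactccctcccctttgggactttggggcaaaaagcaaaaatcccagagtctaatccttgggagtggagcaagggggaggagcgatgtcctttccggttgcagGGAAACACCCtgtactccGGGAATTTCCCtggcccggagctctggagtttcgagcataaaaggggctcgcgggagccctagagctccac
Cxcl2: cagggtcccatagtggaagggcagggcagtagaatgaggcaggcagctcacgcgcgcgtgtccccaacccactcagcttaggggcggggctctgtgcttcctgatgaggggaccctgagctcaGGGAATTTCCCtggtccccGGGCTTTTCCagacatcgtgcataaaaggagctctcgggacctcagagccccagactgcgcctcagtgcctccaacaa
Cxcl10: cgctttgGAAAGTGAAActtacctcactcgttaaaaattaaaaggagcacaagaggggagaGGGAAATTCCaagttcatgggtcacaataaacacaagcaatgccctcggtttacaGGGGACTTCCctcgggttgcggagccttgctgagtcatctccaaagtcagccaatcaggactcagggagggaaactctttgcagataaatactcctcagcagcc
Cxcl12: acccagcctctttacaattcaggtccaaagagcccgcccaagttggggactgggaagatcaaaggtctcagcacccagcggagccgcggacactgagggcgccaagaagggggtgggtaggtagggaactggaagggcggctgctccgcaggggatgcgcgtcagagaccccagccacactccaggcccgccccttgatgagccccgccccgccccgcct
Cxcl1 held 3 NF-kB-like matches, of which the pair at bases -71 to -61 overlap, with 1 on each strand. Cxcl2 also held 3, again with such an overlapping pair, at bases -97 to -87. Cxcl10 held 2 NF-kB-like matches, GGGAAATTCC at -159 to -150 and GGGGACTTCC at -104 to -95, and 1 ISRE-like match, GAAAGTGAAA, at -213 to -204. Ccl20 held 1 NF-kB-like match, and Cxcl9, Cxcl12 and Cx3cl1 held neither motif in this window. Starts are those of RefSeq, which lie downstream of the Ensembl gene starts given with the genes for Cxcl1, Cxcl2 and Cx3cl1, so that these windows reach into the Ensembl gene, by most of the window for Cx3cl1. These matches describe letters and were not measured as binding sites.

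**Figure D2:**
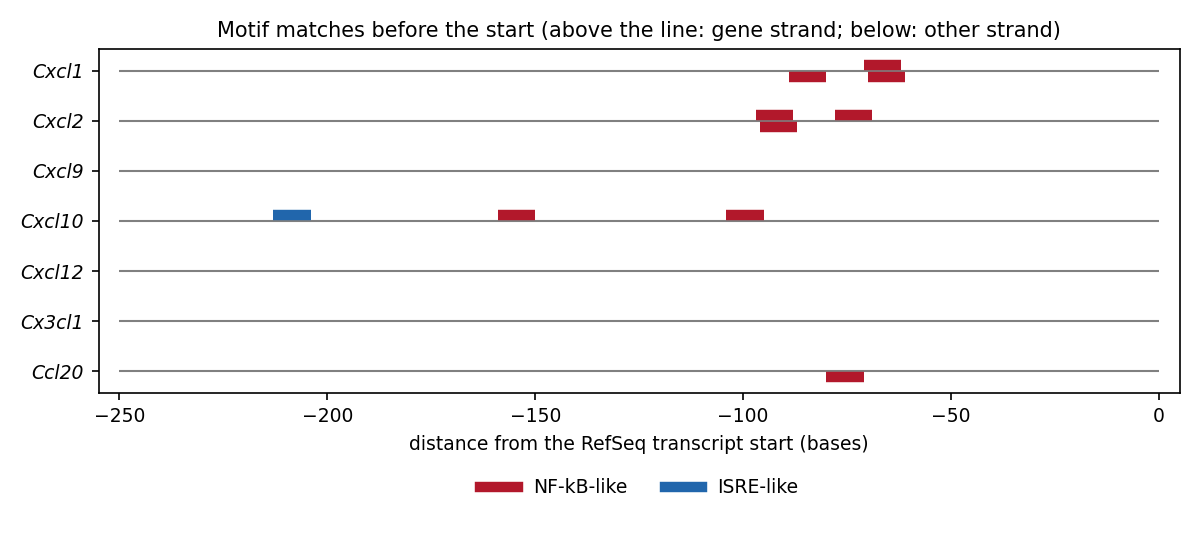
Positions of NF-kB-like and ISRE-like matches in the 250 bases before the start of the 7 chemokine genes with a RefSeq promoter window, with distance from the start in bases on the horizontal axis and matches on the gene's strand drawn above the line. Cxcl1, Cxcl2, Cxcl10 and Ccl20 have matches, Cxcl10 alone among the 7 has an ISRE-like match, and Cxcl9, Cxcl12 and Cx3cl1 have none.

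Cxcl1, Cxcl2 and Cxcl5 attract neutrophils through the receptor CXCR2, and lie in 1 cluster on chromosome 5 (GRCm38, plus strand: Cxcl5 at 90759360 to 90761624, Cxcl1 at 90891241 to 90893115 and Cxcl2 at 90903871 to 90905938). Cxcl1 (ENSMUSG00000029380) was read in every LLRC library, at 54.7, 27.2, 60.2 and 28.4 CPM. In the non-LRC libraries it stood at 45.3 CPM (362 counts) in JV602 and 44.7 CPM (283 counts) in JV624, and at 0 in JV621 and JV6314. The LLRC libraries of JV621 and JV6314 were also the lower pair of their group, and the ranges of the groups overlapped. Within a mouse, Cxcl1 was 1.21-fold higher in LLRCs of JV602 and 1.35-fold higher in JV624, and at least 43.4-fold and 48.0-fold higher in JV621 and JV6314, counted against a floor of 3 counts per library.

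The means of Cxcl1 were 42.6 ± 17.2 CPM in LLRCs against 22.5 ± 26.0 CPM in non-LRC cells (SD, n = 4 each), with a log2 fold change of 0.92 (SE 1.42, 95% interval -2.28 to 4.11, adjusted p = 0.9999 in edgeR's quasi-likelihood test). Leaving out the non-LRC libraries of JV621 and JV6314 gave -0.067. That fit kept the LLRC libraries of these mice, at 27.2 and 28.4 CPM, without their partners. The mouse as a block gave 3.19 (adjusted p = 1.0 in the same edgeR test), and LLRCs had the higher level of Cxcl1 in each of the 4 mice. With the JV602 library left out, the non-LRC mean fell to 14.9 CPM. Cxcl1 was 1 of 425 genes tested (3.12%) that were at 0 in the non-LRC libraries of JV621 and JV6314 and had counts in all LLRC libraries. Of the 5671 genes with an LLRC mean of at least 20 CPM, a level chosen after the values were seen, 16 (0.282%) were at 0 in both. The part of these libraries in its difference was not tested.

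Cxcl5 (ENSMUSG00000029371), which epithelial cells make in answer to interleukins and microbial products, was read in all 4 LLRC libraries, at 2.81, 16.8, 6.32 and 19.5 CPM. In the non-LRC libraries it stood at 0 in JV602, JV621 and JV6314 and at 32.4 CPM (205 counts) in JV624, the highest level of the gene in the series. The LLRC fraction was thus at least 7.48-fold, 26.8-fold and 33.0-fold higher in 3 mice and 5.12-fold lower in JV624. The log2 fold change was 0.49 (SE 1.75, 95% interval -3.47 to 4.44, adjusted p = 0.9999 in edgeR's quasi-likelihood test), and it was 5.50 with the mouse as a block and -0.48 with the non-LRC libraries of JV621 and JV6314 left out. With the JV624 library left out, the non-LRC mean was 0, and the log2 fold change of 9.41 in that fit rests on those zeros. Cxcl2 was at or near 0 throughout, with 6 counts in the LLRC library of JV602, 5 counts in the non-LRC library of JV624 and 0 in the other 6, and it did not pass the filter (exact permutation p = 1.0, two-sided).

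Taking the neutrophil attractants by sum, Cxcl1, Cxcl2 and Cxcl5 made up 23.2% to 41.5% of the CPM of the 10 genes in LLRC libraries. Their share was 21.2% and 22.2% in the non-LRC libraries of JV602 and JV624, and 0% in those of JV621 and JV6314. Neutrophil markers did not follow this pattern, because the summed level of the 8 markers was at most 0.395 CPM in 6 libraries and was 90.4 CPM in the LLRC and 581.1 CPM in the non-LRC library of JV621. Most of that was S100a8, with 726 and 2732 counts, while Mpo and Elane, made by neutrophil precursors, were at 0 in every library.

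Cxcl10 and Cxcl9 are induced by interferons and draw T cells through CXCR3. They lie next to each other on the minus strand of chromosome 5, Cxcl9 at 92321347 to 92328079 and Cxcl10 at 92346638 to 92348889 (GRCm38). Cxcl10 (ENSMUSG00000034855) was read at 12, 24, 14 and 27 counts in LLRCs, or 1.16, 2.84, 2.06 and 3.00 CPM. It was at 0 in all 4 non-LRC libraries, so the groups did not overlap. The study had picked Cxcl10 as raised in LLRCs from these same libraries, so its direction is not independent evidence. The LLRC mean of 2.27 ± 0.841 CPM (SD, n = 4) was at least 4.38-fold higher than the floor of 3 counts per non-LRC library, and within single mice the bound was 3.10-fold to 5.06-fold.

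Counts in every LLRC library with 0 in every non-LRC library were found for 7 of the 13605 genes tested (0.0515%), Cxcl10 among them, and LLRC libraries lay above all non-LRC libraries for 292 genes (2.15%). Since the study picked the gene on these libraries and it passed the filter through LLRCs alone, these shares and the p-values that follow restate that pattern and are no independent test of it. Of its 4 zeros, 2 lie in the non-LRC libraries of JV621 and JV6314. For Cxcl10, edgeR's quasi-likelihood test gave an adjusted p of 0.124, or 0.938 with the mouse as a block, against 2.6e-05, 9.9e-06 and 0.00172 in edgeR's exact test, edgeR's likelihood ratio test and DESeq2. Over all 19 alternatives it ranged from 9.9e-06 to 0.938. With the non-LRC libraries of JV621 and JV6314 left out it was 0.275 in edgeR's quasi-likelihood test. The gene Art3 overlaps 5.9% of the exon bases of Cxcl10 on the opposite strand, and the authors counted without strand. Art3 had 0 to 3 counts per LLRC library and 0, 166, 2 and 117 in non-LRC cells, and its part in the Cxcl10 counts was not tested.

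Cxcl9 (ENSMUSG00000029417) was sparser and was read in libraries of both fractions. LLRCs held 0, 6, 0 and 37 counts and non-LRC cells 0, 0, 14 and 0, and the gene did not pass the filter (exact permutation p = 0.714, two-sided). Leaving out JV6314 lowered the LLRC mean from 1.20 to 0.237 CPM, and leaving out JV624 brought the non-LRC mean to 0. Cxcl11, the other CXCR3 ligand, was read almost only in the non-LRC library of JV621, with 66 counts and at most 1 count elsewhere. The receptor Cxcr3 itself had 0 counts in all 8 libraries.

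Markers of T, B and natural killer cells were low in both fractions. Of the 12 lymphocyte genes, 6 (Cd3e, Cd3d, Cd79a, Nkg7, Klrb1c and Gzma) were at 0 in every library, and the summed level of the list was 1.45 to 6.66 CPM in LLRCs and 0 to 1.78 CPM in non-LRC cells. Ptprc, which encodes CD45, the antigen that the sort excluded, made up most of the LLRC sum in JV621, JV624 and JV6314, with 5, 34, 14 and 59 counts in LLRCs against 0, 0, 0 and 7 in non-LRC cells, and Trac had 9 counts in the LLRC library of JV602. The LLRC libraries had the same order for Ptprc as for Cxcl10, with JV602 lowest and JV6314 highest. Of the 12 macrophage and Kupffer cell markers, given below with Cxcl12, 2 to 5 had any count in an LLRC library. The part of CD45-expressing cells in the Cxcl10 counts was not tested.

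**Figure D3:**
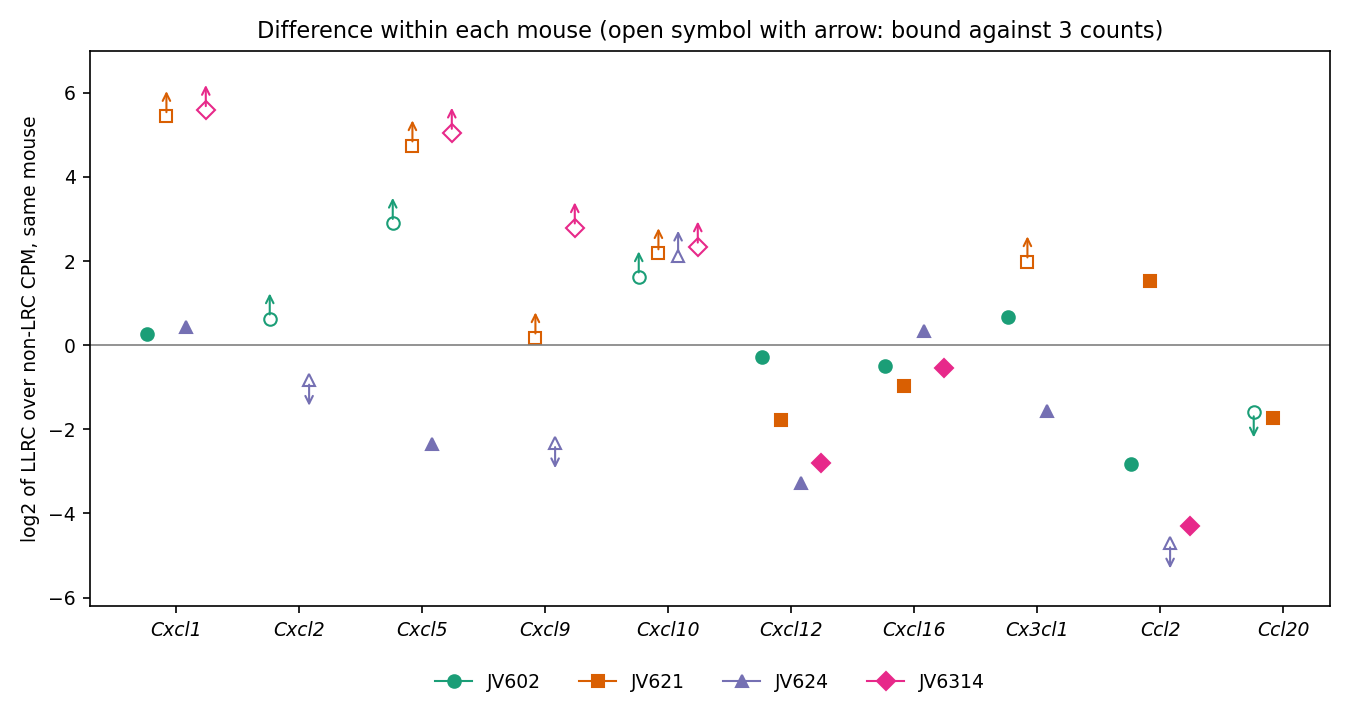
Difference between the LLRC and the non-LRC library of the same mouse for each chemokine gene, as the log2 ratio of CPM, with each point standing for 1 mouse. Open symbols with arrows mark pairs in which 1 library was at 0 and the ratio is a bound against 3 counts, and pairs with both libraries at or under 3 counts are left out. Cxcl10 lies above 0 in all 4 mice by bounds alone, Cxcl1 lies above 0 in all 4 with 2 bounds, Cxcl12 lies below 0 in all 4, and the other genes fall on both sides or rest on fewer mice.

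Cxcl12, which holds CXCR4-bearing stem cells and leukocytes in their niches and is made in liver mainly by mesenchymal and endothelial cells, had the opposite direction. Cxcl12 (ENSMUSG00000061353; chromosome 6, 117168535 to 117181367, plus strand) stood at 17.4, 14.3, 20.6 and 20.98 CPM in LLRCs, a narrow range. In the non-LRC libraries it stood at 20.9, 49.1, 199.5 and 145.6 CPM. The LLRC fraction was the lower of each pair, by 1.21-fold, 3.43-fold, 9.69-fold and 6.94-fold, although the ranges overlapped, because the non-LRC library of JV602 lay just under the LLRC library of JV6314. The means were 18.3 ± 3.12 CPM in LLRCs against 103.8 ± 83.2 CPM in non-LRC cells (SD, n = 4 each).

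The log2 fold change of Cxcl12 was -2.50 (SE 0.64, 95% interval -3.95 to -1.05), with an adjusted p = 0.359 (0.00354 unadjusted) in the edgeR quasi-likelihood test. The exact permutation p was 0.0571 (two-sided). With this number of libraries that test can give no value below 0.029, and it leaves out the pairing by mouse. The adjusted p was 0.0232 in edgeR's exact test, 0.0191 in its likelihood ratio test and 0.00810 in DESeq2, and over all 19 alternatives it ranged from 0.00810 to 0.934, with log2 fold changes from -2.85 to -1.94. With the mouse as a block, the log2 fold change was -2.06 and the adjusted p 0.868, and with the non-LRC libraries of JV621 and JV6314 left out they were -2.57 and 0.384. Among the 10 chemokine ligands tested, which include 3 outside the chosen genes, Cxcl12 and Ccl9 had an unadjusted p below 0.05 with a lower level in LLRCs, where 3.56% of all genes tested had that.

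Marker genes of other liver cell types are given beside Cxcl12. The 12 stellate cell and fibroblast markers summed to 277.4 to 908.9 CPM in LLRCs, and to 704.2, 754.5, 2929 and 2451 CPM in non-LRC cells, which puts the non-LRC libraries in the same order as Cxcl12 does. Of these markers 7 were tested, 2 of them had an unadjusted p below 0.05, both lower in LLRCs (Dcn, the most abundant, and Lrat), none passed the adjusted threshold, and none of the 12 was at 0 throughout. Reln, the next most abundant, stood at 234.6 ± 45.0 CPM in LLRCs against 188.5 ± 72.6 CPM in non-LRC cells. The 16 endothelial markers summed to 35.8 to 80.5 CPM in LLRCs and to 227.1, 1089, 529.1 and 705.8 CPM in non-LRC cells, with 13 of 13 tested at an unadjusted p below 0.05 and lower in LLRCs. The hepatocyte markers summed to 2814 to 3349 CPM in LLRCs and 2209 to 6683 CPM in non-LRC cells, again highest in JV624 and JV6314. Alb made up most of the LLRC sum, with 2336 against 2319 CPM in non-LRC cells, and 7 of the 12 hepatocyte markers, all tested, had an unadjusted p below 0.05 and were lower in LLRCs (median log2 fold change -1.71). The 12 macrophage and Kupffer cell markers summed to 14.0 to 33.5 CPM in LLRCs, and to 33.1, 21.5, 53.7 and 35.1 CPM in non-LRC cells. Of these 12, 5, 3, 12 and 9 were read in the non-LRC libraries, against 2 to 5 in LLRC libraries. Only 2 were tested, with 0 at an unadjusted p below 0.05. Pancreatic acinar markers, given above, were highest in the non-LRC library of JV6314. The part of all these cells in the Cxcl12 difference was not tested, and in bulk libraries fewer cells of a type and less RNA per cell cannot be told apart.

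**Figure D4:**
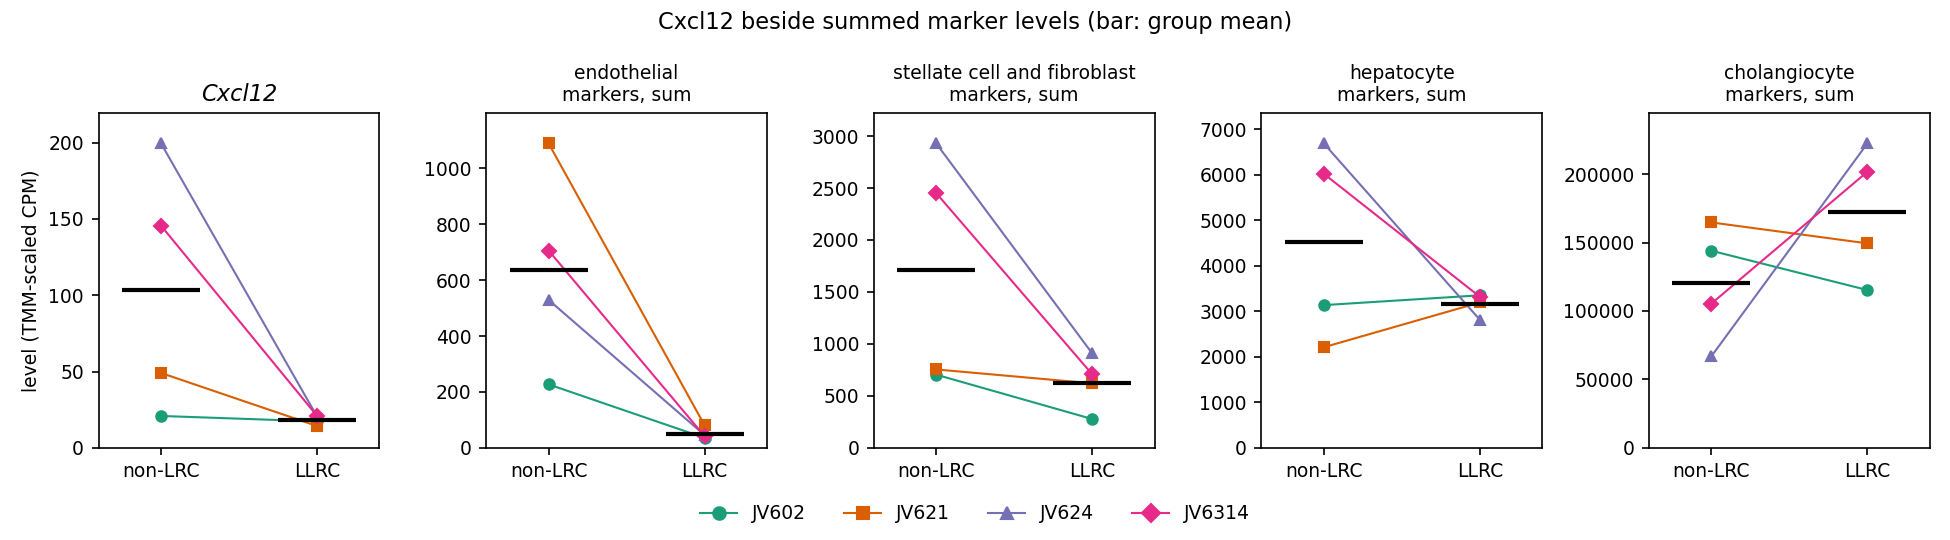
Level of Cxcl12 beside the summed levels of endothelial, stellate cell and fibroblast, hepatocyte and cholangiocyte markers, in TMM-scaled CPM on linear axes from 0, with each point standing for 1 library, lines joining the libraries of a mouse and black bars at group means. The LLRC libraries sit together at low levels of Cxcl12, 14.3 to 20.98 CPM, and the non-LRC libraries of JV624 and JV6314 have both the highest Cxcl12 and the highest stellate cell and fibroblast sums.

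The transcripts whose log2 CPM was most like that of Cxcl12 over the 8 libraries were Cyp2e1 (Pearson r = 0.983), Vim (0.979) and Glul (0.971), a hepatocyte cytochrome, the mesenchymal filament vimentin and the glutamine synthetase of pericentral hepatocytes. Those most like Cxcl10 were Pbk (0.993), Oprk1 (0.989) and Spdya (0.988), which the study had also picked as raised in LLRCs from these libraries. Cxcl10 was at 0 in every non-LRC library, and a gene with the same zeros and counts in every LLRC library has a high r by that pattern. Those most like Cxcl1 were Cpsf4 (0.994), Tmco4 (0.994) and Lyrm9 (0.992). By the same measure Cxcl5 was most like Rps23-ps1, Omd and Blm, Cxcl16 most like A930033H14Rik, Gm10241 and Gm26528, Cx3cl1 most like Fam53a, Ccdc15 and Ccdc93, and Ccl2 most like Erp29, Scap and Rnf40. The 8 libraries share 4 mice, 2 sorted fractions and the 2 libraries with many genes at 0, which can each place genes in the same order, and the values are given as a description. Among the chemokines themselves, Cxcl1 was most like Cx3cl1 (0.756) and Cxcl5 (0.660), and least like Cxcl16 (-0.792).

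Cxcl16 and Cx3cl1 are made as transmembrane proteins that tether leukocytes and are released by the proteases ADAM10 and ADAM17. Cxcl16 (ENSMUSG00000018920; chromosome 11, 70453983 to 70459984, minus strand), a ligand of CXCR6 on natural killer T and T cells, was read well above the floor in all 8 libraries. It stood at 83.5, 110.8, 69.3 and 94.5 CPM in LLRCs and at 117.8, 218.2, 54.8 and 136.9 CPM in the non-LRC libraries, and the ranges overlapped. It was lower in LLRCs of 3 mice, by 1.41-fold to 1.97-fold, and 1.27-fold higher in JV624. The log2 fold change was -0.56 (SE 0.40, 95% interval -1.46 to 0.34, adjusted p = 0.9999 in edgeR's quasi-likelihood test), or 0.062 with the non-LRC libraries of JV621 and JV6314 left out. Zmynd15 overlaps 18.3% of its exon bases on the opposite strand and had at most 12 counts.

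Cx3cl1 (ENSMUSG00000031778; chromosome 8, 94772009 to 94782427, plus strand), the ligand of CX3CR1 on monocytes, was low in both fractions, at 3.78, 2.48, 1.32 and 0.111 CPM in LLRCs against 2.38, 0, 3.95 and 0.197 CPM in non-LRC cells. Both libraries of JV6314 held 1 count each. The log2 fold change was 0.22 (SE 1.23, 95% interval -2.56 to 3.00, adjusted p = 0.9999 in edgeR's quasi-likelihood test), and its sign changed with 5 of 19 alternatives, to -0.69 with the non-LRC libraries of JV621 and JV6314 left out. The interval allows a large difference either way, so the depth and spread of these libraries do not show whether Cx3cl1 differs.

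Of 7 genes for enzymes that process these ligands, 3 were read well in both fractions. Adam10 stood at 944.8 ± 285.4 CPM in LLRCs against 1080 ± 648.1 CPM in non-LRC cells (SD, n = 4 each), Adam17 at 35.9 ± 12.2 and 22.4 ± 9.51 CPM, and Dpp4, whose product trims the ends of Cxcl10 and Cxcl12, at 391.8 ± 70.0 and 470.3 ± 138.5 CPM. Mmp2, a metalloprotease that also cuts Cxcl12, was near 0, Mmp8 had 1 count in all, and Mmp9 and Ctsg had 0. Adam10, Adam17 and Dpp4 were tested and none had an unadjusted p below 0.05, with log2 fold changes between -0.26 and 0.68.

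Ccl2 and Ccl20 are CC chemokines that draw monocytes through CCR2 and dendritic and Th17 cells through CCR6. Ccl2 (ENSMUSG00000035385; chromosome 11, 82035571 to 82037453, plus strand) varied widely among mice in both fractions. It stood at 3.68, 13.1, 0 and 0.111 CPM in LLRCs, and at 26.3, 4.59, 11.5 and 2.17 CPM in the non-LRC libraries. It was lower in LLRCs of JV602 by 7.14-fold, of JV624 by at least 26.1-fold and of JV6314 by 19.6-fold, and 2.86-fold higher in JV621. In JV6314 the LLRC library held 1 count and the non-LRC library 11, so that the ratio has an exact 95% counting interval from 2.84-fold to 841.6-fold. The log2 fold change was -1.40 (SE 1.41, 95% interval -4.58 to 1.79, adjusted p = 0.9999 in edgeR's quasi-likelihood test), and the direction stayed the same in all 19 alternatives, from -3.19 to -0.54, with -3.04 under the mouse block and -2.14 with the non-LRC libraries of JV621 and JV6314 left out. Leaving out JV621 lowered the LLRC mean from 4.23 to 1.27 CPM, and leaving out JV602 lowered the non-LRC mean from 11.2 to 6.10 CPM.

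Ccl20 (ENSMUSG00000026166; chromosome 1, 83116766 to 83119167, plus strand) was read at 0, 9, 2 and 0 counts in LLRCs against 7, 17, 3 and 0 in non-LRC cells. Its level was thus no higher in LLRCs than in non-LRC cells of any mouse, but every value was low, the gene did not pass the filter, and the exact permutation p was 0.457 (two-sided). Leaving out the libraries of JV621 gave means of 0.0981 CPM in LLRCs against 0.450 CPM in non-LRC cells.

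Among the 8 receptors of these chemokines, only Ackr3 was read well enough to be tested. Ackr3, an atypical receptor that takes up Cxcl12 without signalling through G proteins, was read at 10, 44, 3 and 34 counts in LLRCs against 90, 21, 219 and 134 in non-LRC cells. It was 2.60 ± 2.27 CPM in LLRCs against 19.2 ± 13.8 CPM in non-LRC cells (SD, n = 4 each), a log2 fold change of -2.87 (SE 0.90, adjusted p = 0.589 in edgeR's quasi-likelihood test), in the direction of its ligand Cxcl12. Cxcr3, Cxcr4 and Cxcr6 were at 0 in all 8 libraries, Cxcr2 and Cx3cr1 had at most 1 and 3 counts, and Ccr2 and Ccr6 at most 17 and 12. Of the 15 other chemokine receptors, 2 were tested. Ackr1, a chemokine-binding protein of red cells and venous endothelium, was lower in LLRCs with no overlap (0.376 ± 0.277 against 11.4 ± 8.20 CPM, log2 fold change -4.86, adjusted p = 0.178 in the same edgeR test), where 260 genes (1.91%) lay below without overlap, and Ccrl2 had a log2 fold change of -0.61. Ackr2, a decoy receptor for CC chemokines, was read mainly in the non-LRC libraries of JV621 and JV624, with 201 and 72 counts, and Ackr4 in that of JV624, with 41 counts.

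Of 28 other chemokine ligands, 18 had any count and 3 were tested. Ccl9, a monocyte attractant, stood at 4.11 ± 1.94 CPM in LLRCs against 19.7 ± 20.02 CPM in non-LRC cells (SD, n = 4 each), a log2 fold change of -2.25 (SE 0.97, adjusted p = 0.951 in edgeR's quasi-likelihood test). Its counts were highest in the non-LRC libraries of JV624 and JV6314, 258 and 166, where Cxcl12 was also highest. Ccl25 and Ccl27a had log2 fold changes of -0.75 and 0.24, and Cxcl13, a B cell attractant, had 185 counts in the non-LRC library of JV624, 36 in the LLRC library of JV6314 and at most 1 elsewhere. Cxcl17, a mucosal ligand outside the filter and named after its values were seen, was read at 4, 5, 3 and 3 counts in LLRCs and at 0 in all non-LRC libraries, within or close to the floor of 3 counts.

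The NF-kB route to chemokine genes (cytokines, receptors, kinases, factors and inhibitors) had no gene past the adjusted threshold. Of 30 genes, 28 were tested, 3 had an unadjusted p below 0.05 and all 3 were lower in LLRCs, where 3.56% of all genes tested were lower at that p. The median log2 fold change was -0.15, against -0.01 over all genes tested. Nfkbia, an inhibitor and an early target of NF-kB, stood at 129.5 ± 29.9 CPM in LLRCs against 136.1 ± 56.3 CPM in non-LRC cells. Il18, an epithelial cytokine, stood at 146.0 ± 56.2 and 63.0 ± 41.1 CPM (log2 fold change 1.21, adjusted p = 0.9999 in edgeR's quasi-likelihood test), and the kinase genes Chuk and Ikbkg had log2 fold changes of -0.81 and -0.04. The 3 genes at an unadjusted p below 0.05, named after their values were seen, were the tissue cytokine Il33 (22.2 ± 7.33 against 59.1 ± 28.3 CPM), the cytokine Il1a (6.06 ± 4.27 against 39.9 ± 39.2 CPM) and the TNF receptor Tnfrsf1a (9.85 ± 2.25 against 20.9 ± 8.71 CPM), with log2 fold changes of -1.41, -2.72 and -1.08. Il1b had 0 counts in all 8 libraries.

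The interferon route, which is known to switch on Cxcl9 and Cxcl10, gave 20 tested genes of 24, with 0 at an unadjusted p below 0.05 in either direction. Log2 fold changes lay between -0.88 and 0.96 with a median of 0.03, 10 above 0 and 10 below. Jak1 stood at 188.3 ± 38.5 CPM in LLRCs against 307.2 ± 173.5 CPM in non-LRC cells, Ifngr1 at 241.1 ± 50.2 and 204.0 ± 46.8 CPM, and the interferon-induced genes Ifit1 and Gbp2 at 75.9 ± 27.1 and 69.9 ± 42.0 CPM and at 45.6 ± 11.6 and 83.8 ± 48.1 CPM (SD, n = 4 each). The interferon genes Ifng and Ifnb1 had 0 counts in all 8 libraries. No gene of either list was at 0 in every non-LRC library and read in every LLRC library, as Cxcl10 was. A difference between Cxcl10 and the lists was not itself tested.

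**Figure D5:**
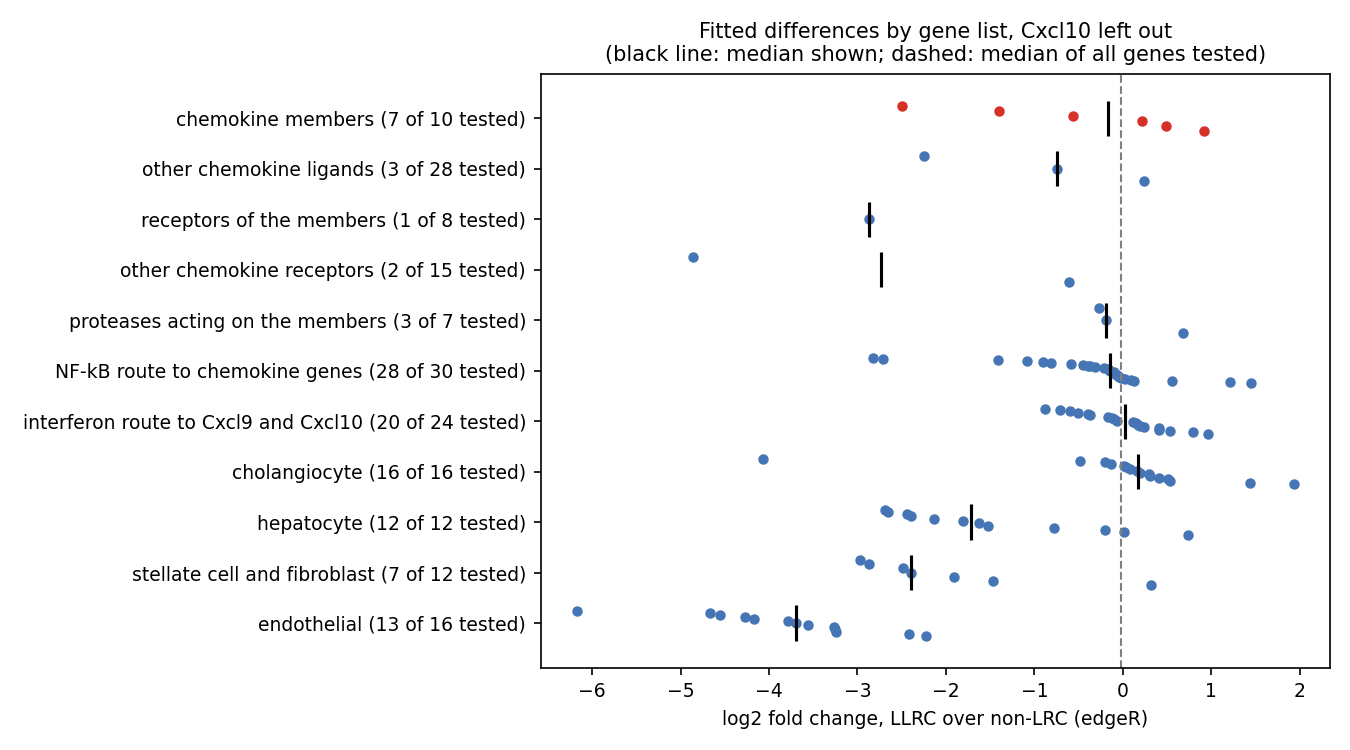
Log2 fold change of each tested gene (LLRC over non-LRC, edgeR) in the chemokine genes and the context lists, with each point standing for 1 gene, a black line for the median of the genes drawn, a dashed line for that of all genes tested, and the number tested of the number listed beside each name. Cxcl10 is not drawn because its non-LRC counts are all 0. The interferon list is centred near 0, with a median of 0.03, and all 13 tested endothelial markers lie below 0.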

How the data were processed

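The authors aligned the reads at a sequencing service (the aligner is not given in the sources used here) and counted them with HTSeq in union mode on Ensembl exons of GRCm38.p4, without strand. Deposited values are these counts by gene, with no normalization. The deposited comparison table of the authors (edgeR 3.2.4) holds log2 fold changes, mean log2 abundance, p-values and adjusted p-values, and was not used. Libraries were grouped by the labels, which name the mouse of each.

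Genes were filtered with filterByExpr by group (minimum count 10, minimum total count 15), scaled by TMM on the counts of the genes kept, and tested with the quasi-likelihood test of edgeR 4.0.16 in R 4.3.3, with Benjamini-Hochberg adjustment over all genes tested and a threshold of 0.05. Genes outside the filter, and single values, were compared by an exact two-sided permutation test of mean CPM in Python 3.11.15 with scipy 1.17.1. The tests were tested on simulated data. A fold against a library or group at 0 is a bound against 3 counts per library, and intervals and floors of that kind cover counting error only. DESeq2 1.42.0 and limma 3.58.1 served as alternatives, together with a mouse block, other filters, scalings and tests, and fits that leave out a library.

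All chemokine members and all their receptors were named, with the 4 most abundant genes of each other pathway list and the 3 tested genes most like each member. The members and lists were chosen with earlier results of these data known. Both libraries of a mouse come from 1 animal, so the mice pair the libraries. Deviations from the group means correlated at 0.0961, 0.0737, 0.00334 and 0.171 within JV602, JV621, JV624 and JV6314. Symbols were found for 46091 of 46603 identifiers.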

Additional observations from a re-analysis of the deposited data

Results flagged for a closer look

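Of the 19 groups of 4 libraries that held any count of a chemokine gene, 4 had a highest library whose gap to the next was more than Dixon's limit allows, a limit that chance passes in about 1 in 20 groups of continuous values. That rate does not apply here, because each of the 4 had its other 3 libraries at 0, so that any count would pass. Cxcl5 stood at 32.4 CPM (205 counts) in the non-LRC library of JV624 and at 0 in the other 3 non-LRC libraries. Cxcl9 stood at 2.21 CPM (14 counts) in that same library and at 0 in the other 3. Cxcl2 stood at 0.789 CPM (5 counts) in that library and at 0 in the other 3, and at 0.582 CPM (6 counts) in the LLRC library of JV602 with 0 in the other 3 LLRC libraries. Thus 3 of the 4 were in the non-LRC library of JV624.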

How the results depend on the processing

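The number of genes called was 0 in edgeR's quasi-likelihood test (702 at an unadjusted p below 0.05). It was 159 (32 higher and 127 lower in LLRCs) in edgeR's exact test, 171 (36 and 135) in its likelihood ratio test, 221 (49 and 172) in DESeq2 and 11 (1 and 10) with no expression filter. With 1 library left out it was 0 to 6 (0 to 0 higher and 0 to 6 lower), with 6 without the non-LRC library of JV602. With the non-LRC libraries of JV621 and JV6314 both left out, an alternative chosen after seeing the data, it was 1 (0 and 1). The cause of these shifts was not tested. With the mouse as a replicate block, which the pairing by animal allows, it was 0 (569 at an unadjusted p below 0.05), and the block ended or made no call.

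Cxcl12 and Ccl2 kept their direction in all 19 alternatives, with log2 fold changes of -2.85 to -1.94 and -3.19 to -0.54. Cxcl10, at 0 in every non-LRC library, could not change direction. The fit without both of those non-LRC libraries kept their LLRC partners. It thus set all LLRC libraries against the non-LRC libraries of JV602 and JV624, mice in which Cxcl1 was higher in LLRCs. In it Cxcl1 (-0.067), Cxcl5 (-0.48), Cxcl16 (0.062) and Cx3cl1 (-0.69) changed sign. Cx3cl1 also did so with limma's sample weights (-0.32), and with 1 library left out it lay between -0.33 and 1.09, below 0 without the LLRC library of JV602 (-0.33) or the non-LRC library of JV621 (-0.17) or JV6314 (-0.13). With the mouse as a block the log2 fold change was 3.19 for Cxcl1, 5.50 for Cxcl5, -0.42 for Cxcl16, 0.56 for Cx3cl1 and -3.04 for Ccl2. The floor of 3 counts used for bounds was worth 0.291 to 0.627 CPM per library.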
